A study of Mus musculus with 2 samples.

Results

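Stretches of the mouse genome that collected an unusual number of reads without any antibody were examined in a ChIP-seq study of EBF1, a DNA-binding protein on which B cell development depends. They were chosen from the input library alone, as bins of 1 kb on chromosomes 1 to 19 and X in which at least 50 input reads began. Of 2435280 bins with an input read, 531 met this limit (0.0218%). Bins separated by at most 2 kb were joined, which gave 252 blocks. High input is therefore the criterion of choice, and input levels below are a description.

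The study compared chromatin precipitated with a rabbit polyclonal antibody against murine EBF1 (EBF1 ChIP) with input DNA, for which the labels list no antibody. Both libraries came from spleens of adult C57BL/6 mice after magnetic removal of cells bearing CD43, AA4.1, CD4, CD8 or CD9, and the remaining cells were described as mature follicular B cells. No genetic change or treatment is named for either library, and the number of mice behind each is not given in the sources used here. DNA reads carry no expression values, so marker genes of the cell type could not be checked.

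Each group held 1 library, so no test between conditions was possible and intervals cover counting error only. The ChIP library held 24337709 reads and the input 23033569 on chromosomes 1 to 19, X and Y. A ChIP to input ratio below is the ratio of reads divided by 1.06, the ratio of these totals. A covered bin held a median of 9 input and 9 ChIP reads. Each library held at most 1 read per position and strand, so a bin could hold at most 2000 reads. PCR copies and separate fragments that share a position and strand thus count once. Without molecular identifiers they cannot be told apart, and the intervals leave this out. All positions are in the mm8 build.

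As background, mouse chromosomes carry their centromeres at one end, and the sequence next to it is rich in satellite DNA repeated in long tandem arrays. Ribosomal RNA genes are also present in many tandem copies. Assemblies represent such arrays by few copies, so reads from many genomic copies can be placed on a short stretch, with or without an antibody. For this reason such regions are commonly masked before peaks of a transcription factor are interpreted.

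The members lay far above the rest of the genome in both libraries. A member bin held a median of 70 input and 76 ChIP reads, with up to 826 input and 1519 ChIP reads. Together they took 0.276% of input reads (95% interval 0.274 to 0.278%) and 0.284% of ChIP reads (0.281 to 0.286%). ChIP reads, which were not used in the choice, were also high: 367 of the 531 members (69.1%) reached the scaled equivalent of 50 reads in the ChIP library. Those 367 made up 19.2% of the 1912 bins that reached this level. Just inside the limit, 102 bins with 50 to 54 input reads held 19 to 191 ChIP reads, with a median of 45. Just outside it, 176 bins with 45 to 49 input reads held 14 to 118, with a median of 38.

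Most blocks were short, while most reads lay in few of them. Single bins made up 208 of the 252 blocks and held 23.4% of the members' input reads. A further 27 blocks had 2 to 4 bins and held 12.4%. The 17 blocks of 5 or more bins held 64.2%. The 10 blocks with the most input reads covered 204 bins and held 37287 of the 63566 input reads (58.7%). Edges were steep: the bin on either side of a block held a median of 12 input reads, and 407 of the 504 flanking bins held fewer than 20.

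Blocks occurred on all 20 chromosomes examined, and many reads lay at chromosome starts. Within 200 kb of the first read of a chromosome there were 14 blocks on 9 chromosomes. They held 140 bins (26.4% of members) and 45.1% of the members' input reads, although this part of the genome made up 0.138% of covered bins. The block on chromosome 11 at 3027001 weighed heavily in this. Without it, 13 blocks with 67 bins (12.6% of members) and 15.6% of the input reads remained. The first read fell in the first kb after 3 Mb on 16 of the 20 chromosomes. On chromosomes 3, 5, 9 and 11 a block began in that first bin. On chromosome 5 it spanned 3000001 to 3003000 and held 1680 input and 1521 ChIP reads. On chromosome 9 it spanned 3000001 to 3008000, with 795 and 673 reads. On chromosome 11 it spanned 3000001 to 3005000, with 623 and 527 reads. In each of these 3 blocks the scaled ChIP level lay below the input level. At the other end, within 200 kb of the last read, there were 5 blocks on 4 chromosomes with 1483 input reads.

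The sum over all members hid opposite directions. The pooled ratio was 1.03 (1.02 to 1.04), but 205 of the 252 blocks had a ratio below 1 and the median block had 0.797. The 2 largest blocks carried the excess. Without them the other 250 blocks had a pooled ratio of 0.898 (0.886 to 0.911). Blocks of 5 or more bins, which include those 2, had a pooled ratio of 1.14 (1.13 to 1.16). Those of 2 to 4 bins had 0.878 (0.850 to 0.906) and single bins 0.797 (0.779 to 0.817). The median blocks of these classes had 1.02, 0.848 and 0.735. Among blocks of 5 or more bins, 4 had an interval above 1 and 6 an interval below. Choice by high input favours low ratios, so these differences by size support nothing further. Outside the members the ratio was 1.00 (0.999 to 1.00), which the scaling by library totals sets, because nearly all reads lie there.

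**Figure D1:**
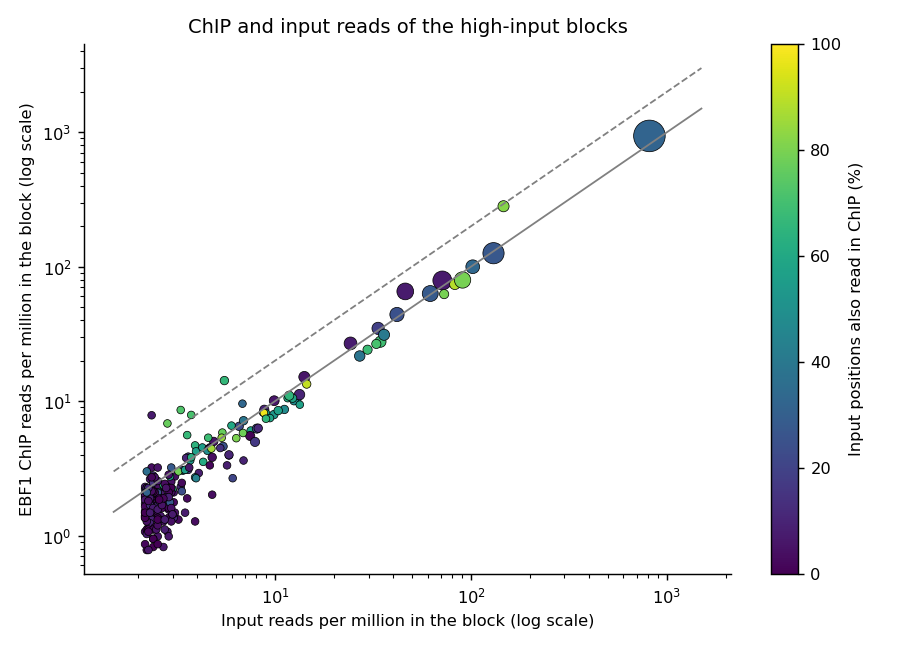
EBF1 ChIP against input RPM (reads scaled to library size) for each of the 252 blocks, on log axes. Each point is a block, its area grows with the number of member bins, its colour gives the share of input positions also read in the ChIP library, the solid line marks equal levels and the dashed line a ratio of 2. Most blocks lie on or under the solid line, and the block on chromosome 17, at 147 input and 282 ChIP RPM, lies just under the dashed line.

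Taken block by block, 11 had an interval above 1 and 94 an interval below 1. Of 235870 windows of 10 kb without a member and with at least 50 input reads, 12.6% had an interval above 1 and 13.4% below, against 4.37% and 37.3% of blocks. A ratio of at least 1.5 occurred in 7 blocks (2.78%), against 5.61% of windows. A ratio of at most 1/1.5 occurred in 73 blocks (29.0%), against 6.91% of windows. The members were chosen for high input, which is the denominator, so a low ratio is favoured by the choice and these shares support nothing further. Choosing bins by at least 25 reads on 1 input strand, and taking the ratio from the other strand, avoids reuse of the same reads. The median ratio was then 0.885 over 391 blocks chosen on the plus strand and 0.874 over 388 chosen on the minus strand, against 0.956 over the windows. With this choice 53 (13.6%) and 52 (13.4%) of the blocks had an interval below 1, close to the 13.4% of windows, and 16 (4.09%) and 20 (5.15%) an interval above 1, against 12.6%. Fewer reads enter each of these ratios.

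**Figure D2:**
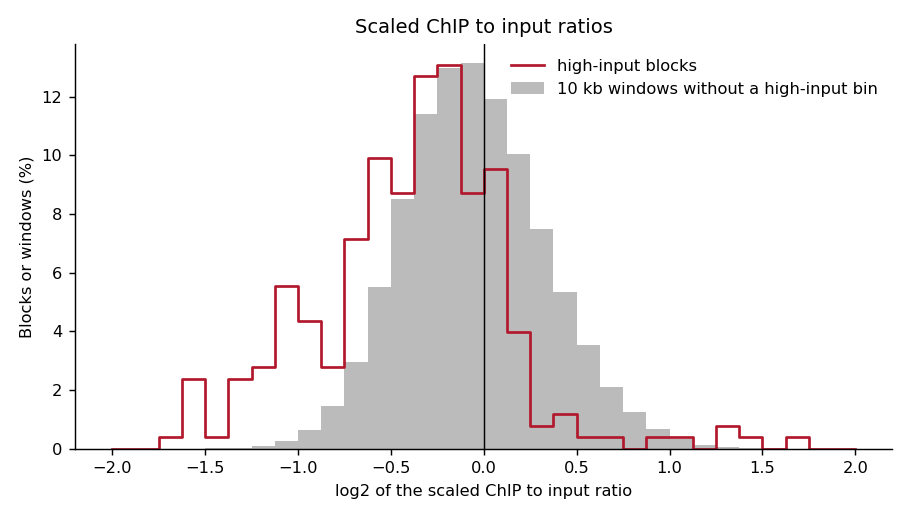
Distribution of the log2 scaled ChIP to input ratio for the 252 high-input blocks (red line) and for 235870 windows of 10 kb without a high-input bin (grey bars), each as a percentage of its group. Windows beyond the axis are placed in the outermost bar. The blocks, whose choice by input favours low ratios, are shifted to the left of the windows and keep a thin tail of high ratios.

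The libraries often read the very same positions in these blocks. Across the 10 kb windows, 1.29% of input positions were also the start of a ChIP read on the same strand. In the blocks as a whole the share was 36.8%. It was at least 10% in 101 blocks (40.1%), against 0.0343% of windows, and at least 50% in 45 blocks. Only 9 of the windows reached 20%, while 78 blocks did. The share rests on positions that an input read had shown to be readable, so it measures how completely the ChIP library filled such positions. Positions favoured in both libraries raise it. A higher read density raises it too, and the members were chosen for high input. Member bins held a median of 76 ChIP reads, against 9 in covered bins. The median block shared 7.55% of input positions, against 1.08% in the median window. How much of the excess over windows goes with density was not tested.

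In the extreme case both libraries had read nearly every position that could be read. The bin on chromosome 14 at 39187001 to 39188000 held 202 input and 199 ChIP reads, of which 198 fell on the same position and strand (98.0% of input positions). From this overlap, 203 positions of the 2000 in the bin were estimated to be readable at all, with the Chapman capture-recapture formula. This formula assumes that all readable positions are equally likely to be read, and unequal positions make the estimate too low. On chromosome 2, the block at 98463001 to 98469000 held 1906 input and 1799 ChIP reads, and 88.9% of input positions were shared. Only 17.1% of its positions were estimated to be readable. On chromosome 9, the block at 35054001 to 35056000 held 334 input and 326 ChIP reads and shared 90.7%. With 1 read per position, a block read completely in both libraries gives a ratio of 0.946 whatever the true levels. These 3 blocks had ratios of 0.932, 0.893 and 0.924.

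The longest pericentromeric block of chromosome 9 was of the same kind. It spanned 3015001 to 3039000, with 2086 input and 1938 ChIP reads in 17 member bins. Input positions were shared to 79.4%, and 5.43% of its positions were estimated to be readable. It held 0 peaks and had a ratio of 0.879 (0.826 to 0.936). The block at the start of chromosome 5 shared 79.6%, held 0 peaks and had a ratio of 0.857 (0.799 to 0.919).

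**Figure D3:**
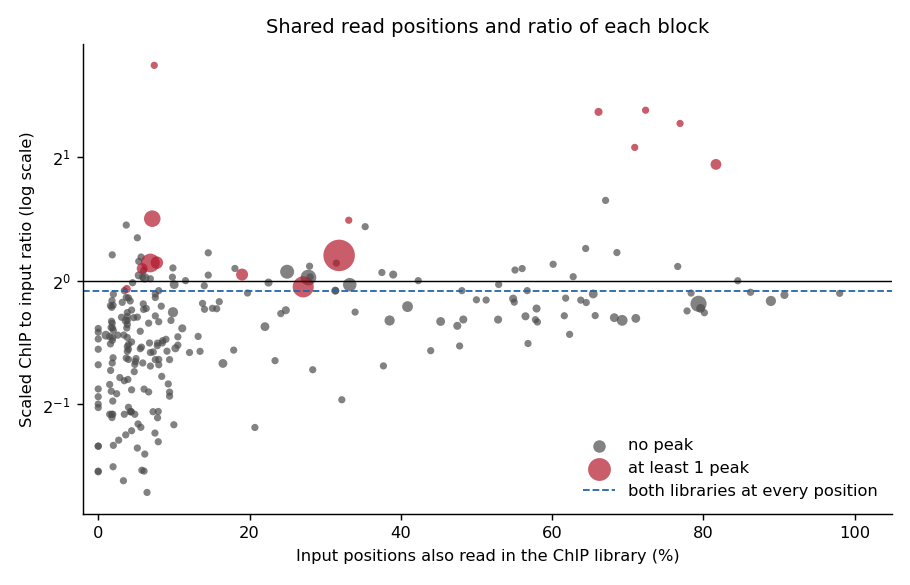
Share of input positions also read in the ChIP library against the scaled ChIP to input ratio (log scale) for the 252 blocks. Red points hold at least 1 listed peak in a member bin, point area grows with the number of member bins, the black line marks a ratio of 1 and the dashed line the 0.946 that a complete reading of both libraries would give. Of the 45 blocks that share at least 50% of input positions, 6 have an interval above 1 and 10 an interval below 1, with ratios from 0.704 to 2.60.

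Other long blocks were high in input without being filled. On chromosome 1, blocks at 90043001 to 90070000 and at 90073001 to 90096000 shared 6.89% and 7.14% of input positions. Their readable share was estimated at 55.1% and 60.0%, so the reads were spread over much of the sequence. The first had 1645 input and 1921 ChIP reads, a ratio of 1.11 (1.03 to 1.18). The second had 1064 and 1593, a ratio of 1.42 (1.31 to 1.53). Near the end of chromosome X, the block at 165314001 to 165353000 held 3001 input and 3065 ChIP reads in 31 member bins and shared 27.1%, with a ratio of 0.967 (0.919 to 1.02). The blocks on chromosome 4 at 3006001 to 3019000 and on chromosome 7 at 63952001 to 63970000 shared 33.2% and 27.8%. They had ratios of 0.979 (0.924 to 1.04) and 1.02 (0.947 to 1.10). These last 3 intervals include 1.

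The largest block lay on chromosome 11 at 3027001 to 3100000, 26.8 kb from the first read of the chromosome. It was an unbroken run of 73 member bins and held 18751 input and 22848 ChIP reads, 29.5% of all input reads in members. Its bins held 56 to 434 input reads, with a median of 258, and 84 to 589 ChIP reads, with a median of 312. The bins just outside held 28 and 22 input reads. Input reads filled 13.4% of plus-strand and 12.3% of minus-strand positions, and ChIP reads 16.0% and 15.3%. Input positions were shared to 31.8%.

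ChIP and input followed one another along this block, with Pearson's r of 0.797 between log read numbers over its 73 bins, which belong to 1 pair of libraries and share their mappability. The ratio of the whole block was 1.15 (1.13 to 1.18). Split near its middle after the profile had been seen, it had a ratio of 1.28 (1.25 to 1.32) over the first 36 bins and 1.03 (1.00 to 1.06) over the last 37. The interval was above 1 in 20 bins of the part nearer the chromosome start and in 7 bins of the other part. Peaks, which were called on the same ChIP reads, fell likewise, with 19 and 6. In the 51 bins without a peak centre the ratio was 1.05.

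The block with the highest read density among the 10 largest lay on chromosome 17 at 39451001 to 39457000. Mouse chromosome 17 carries a sequence related to 18S ribosomal RNA, listed in the gene table of the GRCm38.p6 assembly as the pseudogene Rn18s-rs5. Whether that entry overlaps the block was not tested, because the builds differ. Its 6 bins held 553, 826, 675, 591, 234 and 497 input reads, in order along the chromosome. The same bins held 1102, 1519, 1480, 991, 613 and 1147 ChIP reads. ChIP was thus above input in every bin, with bin ratios from 1.59 to 2.48.

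The chromosome 17 block ended abruptly, and ChIP reads occupied most of its positions. The bins just outside held 8 and 7 input reads. ChIP reads filled 56.1% of plus-strand and 58.1% of minus-strand positions over the block, against 27.9% and 28.4% in the input, and up to 79.6% of 1 strand in a bin. The ChIP library had read 81.7% of input positions, while the input had read 40.2% of ChIP positions. The ratio of the block was 1.92 (1.84 to 2.00). Corrected for the positions estimated to be readable, it was 3.12, an estimate without an interval. The same correction gave 1.20 for the block on chromosome 11 and 0.736 for that on chromosome 2. The correction amplifies the distance from 1 where a block is nearly full.

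**Figure D4:**
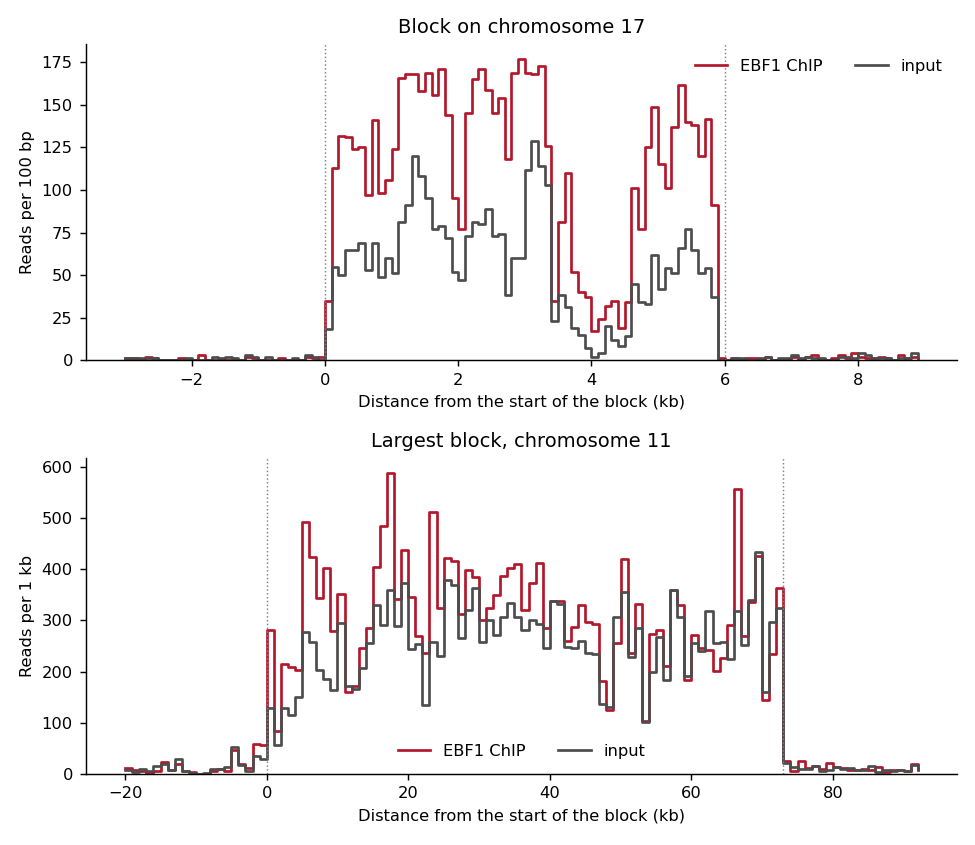
Reads along the block on chromosome 17 (top, per 100 bp) and along the largest block on chromosome 11 (bottom, per 1 kb), for EBF1 ChIP (red) and input (grey), as distance from the start of the block, with dotted lines at its edges. On chromosome 17 ChIP lies above input, and both libraries dip in the same part of the block. ChIP does not follow the highest input. At 2900 bp there are 60 input and 177 ChIP reads, and at 3100 bp 129 and 168. On chromosome 11 the excess of ChIP is larger in the first 36 kb.

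Among the 45 blocks that shared at least 50% of input positions, 6 had an interval above 1 and 10 an interval below. Besides the one on chromosome 17 at 39451001, the 6 were 5 blocks of 1 or 2 bins, picked out after their values were seen. On chromosome 3 at 5843001 to 5844000 there were 65 input and 166 ChIP reads, a ratio of 2.42 (1.80 to 3.27). On chromosome 5 at 146565001 to 146566000 there were 76 and 209, a ratio of 2.60 (1.99 to 3.43). The block on chromosome 11 at 108827001 to 108829000 held 127 and 346, a ratio of 2.58 (2.10 to 3.19).

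The bin at 35839001 to 35840000 of chromosome 17 had 86 input and 192 ChIP reads, a ratio of 2.11 (1.63 to 2.76). The bin at 61254001 to 61255000 of chromosome 19 had 82 and 136, a ratio of 1.57 (1.18 to 2.09). In these 5 blocks 66.1 to 76.9% of input positions were shared, and 10.1 to 14.4% of positions were estimated to be readable. Those on chromosomes 3, 5 and 11 were strongly uneven between strands in the input. Plus-strand reads made up 84.6% of input reads on chromosome 3, 78.9% on chromosome 5 and 29.1% on chromosome 11, against 48.2%, 53.1% and 50.0% of ChIP reads. The middle 95% of the 10 kb windows had 37.2 to 62.8% of input reads on the plus strand.

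Regular spacing of reads was visible in few blocks. In the 17 blocks at least 5 kb long, the distance between 50 and 2000 bp at which read positions on the same strand correlated best was found in each library separately. The libraries gave distances within 5 bp of each other in 5 blocks. In 3 of these, the best distance lay at the short end of the range, where local density alone gives a high value. On chromosome 2 at 98463001 the best distance was 116 bp in both libraries, with a correlation of 0.207 in the ChIP library and 0.219 in the input. On chromosome 9 at 3015001 it was 381 bp among ChIP reads and 383 bp among input reads, with correlations of 0.0626 and 0.0599. Correlations of the size seen on chromosome 9 also occurred where the libraries disagreed. On chromosome 4 at 3006001 they were 0.0746 at 356 bp among ChIP reads and 0.0778 at 470 bp among input reads. The blocks on chromosomes 2 and 9 shared most of their input positions, which favours equal distances in both libraries.

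Listed EBF1 peaks were more frequent in members than in other bins. A peak centre lay in 48 of the 531 member bins (9.04%, 6.74 to 11.8%), against 0.300% of all covered bins. Of these 48 bins, 22 lay in the block on chromosome 11 at 3027001. The interval treats neighbouring bins as independent and is therefore too narrow. By block, 237 of the 252 held no peak in a member bin. Blocks spanned 1 to 73 kb, so counts of blocks cannot be set beside the share per bin. In total 54 of the 7415 peaks on these chromosomes (0.728%) were centred in members, and 59 lay within the blocks when gaps are included. They were concentrated in 15 of the 252 blocks. The 17 blocks of 5 or more bins held 47 of the 54, in 8 blocks. The 208 single-bin blocks held 5. The block on chromosome 11 at 3027001 held 25 peaks, those on chromosome 1 at 90073001 and 90043001 held 6 and 3, that on chromosome 17 at 39451001 held 5, and those on chromosome 13 at 120606001 and on X at 165314001 held 3 each. The blocks that were filled to at least 80% held 0 peaks except that on chromosome 17. Of the 11 blocks with an interval above 1, 10 held a peak, and the one on chromosome 19 did not. Peaks were called on the same ChIP reads, so this overlap is favoured by that choice and is no finding.

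Peaks in members had low scores and a low ratio. The score is the peak caller's own value in the list the authors deposited. Its median was 5.70 for member peaks and 6.07 for the other 7361 peaks, and 2 of the 54 (3.70%) reached 10, against 1400 of the others (19.02%). Reads were counted in each 150 bp peak after moving them 100 bp towards their 3′ end. The median member peak held 68 ChIP and 30 input reads, and the median other peak 12 and 1. The pooled ratio was 1.99 (1.88 to 2.10) in member peaks and 11.5 (11.3 to 11.7) in the others. The ratio was 1.79 (1.66 to 1.92) for the 25 peaks of the largest block. For the 5471 other peaks whose score lay in the range of those 25, it was 7.43 (7.26 to 7.61). The same reads had served to call the peaks, which raises all these ratios, and the rule's choice of high input lowers those of the members. Whether that choice also lowers their scores was not tested, because the control used in peak calling is not given.

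Reads around member peaks were also arranged differently by strand. At a bound site, ChIP fragments begin upstream of the site on each strand, so plus-strand reads lie to its left and minus-strand reads to its right. Within 150 bp of the centre, 81.6% (81.4 to 81.7%) of ChIP reads at the other peaks were in this order, against 51.2% (50.5 to 51.8%) of input reads. At member peaks the ChIP share was 62.3% (61.2 to 63.5%), against 57.0% (55.4 to 58.6%) in the input. This share rests mostly on the blocks on chromosomes 11 and 17. The 24 peaks of the other blocks reached 70.6% (68.3 to 72.9%) with a ratio of 2.76 (2.42 to 3.15), and among them the 7 peaks in blocks of 1 or 2 bins reached 72.1% (68.95 to 75.01%) with a ratio of 3.48 (2.84 to 4.28). Other peaks in the score range of the largest block reached 78.6% (78.4 to 78.9%), while the 25 peaks of that block reached 62.2% (60.6 to 63.7%). At the 5 peaks of the chromosome 17 block the ChIP share was 56.6% (54.5 to 58.7%) and the input share 57.2% (54.1 to 60.3%). The order of ChIP reads there could not be told from that of input reads at this depth. The difference is measured over reads of 1 pair of libraries and has no replicate check. Reads that do not come from a bound site dilute the order, and the members were chosen for high input. Within 150 bp of the centres lay 7338 ChIP and 3679 input reads at member peaks, against 198501 and 23193 at the others. A lower ChIP share at member peaks is thus favoured by the choice. The parts of this dilution and of the position limit in the difference were not tested.

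**Figure D5:**
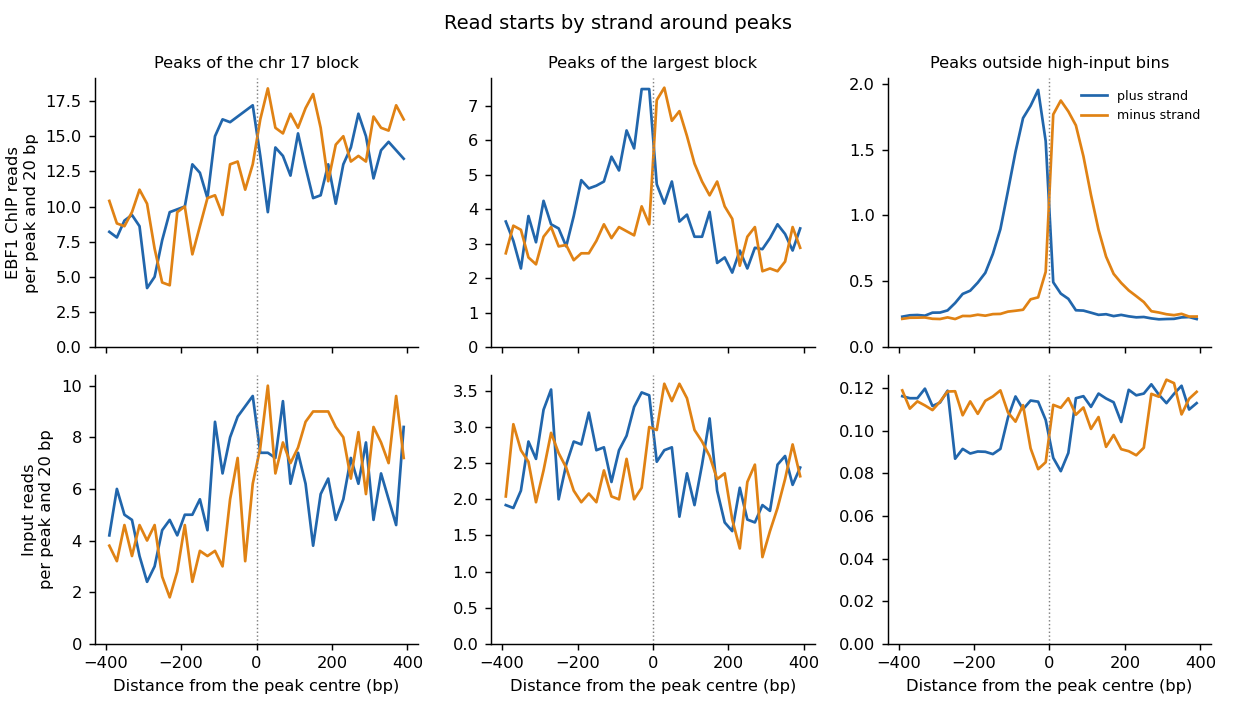
Read starts per peak and 20 bp on the plus (blue) and minus (orange) strand around peak centres, for EBF1 ChIP (top) and input (bottom), at the 5 peaks of the chromosome 17 block, the 25 peaks of the largest block and the 7361 peaks outside high-input bins. Axes differ between panels. Outside high-input bins the strands form separate maxima on either side of the centre in the ChIP library, and at the chromosome 17 peaks they largely overlap.

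The highest-scoring member peak stood apart from the others. On chromosome 1 at 129342151 to 129342300 it had a score of 45.8, the highest among member peaks and rank 66 in the list. There were 110 ChIP reads against 1 in the input (ratio 104, 18.3 to 4149), and 89.4% of its 141 nearby ChIP reads were in strand order. Its bin held 54 input and 191 ChIP reads, so it met the limit narrowly and the input reads lay beside the peak. Only 7.41% of input positions in that bin were shared.

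The next scores fell off steeply. The peak on chromosome 11 at 108828021 to 108828170 had 102 reads in the ChIP library against 18 in the input (ratio 5.36, 3.23 to 9.41) and a score of 11.1, with 63.0% of ChIP reads in strand order. At 39455901 to 39456050 of chromosome 17 a peak scored 9.04, with 216 and 74 reads, a ratio of 2.76 (2.11 to 3.65) and 56.6% in order. On chromosome 3 at 5843661 to 5843810 the score was 8.92, with 73 and 18 reads, a ratio of 3.84 (2.27 to 6.83) and 68.1% in order. The highest in the largest block, on chromosome 11 at 3032121 to 3032270, scored 8.14, with 111 and 40 reads, a ratio of 2.63 (1.81 to 3.87) and 60.1% in order. These 4 lay below the 81.6% of peaks outside members. The largest ChIP counts of any member peak were all on chromosome 17, at 39452221, 39453181 and 39456341. They held 274, 268 and 256 ChIP reads, with 54.5%, 55.6% and 58.9% in strand order, against 60.9%, 56.1% and 62.0% of the input reads there.

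Member bins were also described with and without a peak. Peaks were called on the same ChIP reads, so a higher ratio in bins with a peak follows from that choice and is no finding. The 48 bins with a peak had a ratio of 1.63 (1.59 to 1.67) and the 483 without a peak 0.921 (0.910 to 0.932). On chromosome 1 at 90073001, the 13 bins without a peak still had a ratio of 1.32. On chromosome 13 at 120606001, a block of 8 bins had a ratio of 1.04 (0.938 to 1.14) in all and 0.909 in the 6 bins without a peak. It ended 0.353 kb before the last input read of the chromosome, and the next bin held 41 input reads. Among the 18 blocks with at least 500 input reads, the lowest ratios were 0.801 (0.712 to 0.901) on chromosome 11 at 3000001, 0.801 (0.722 to 0.889) on chromosome 9 at 3000001 and 0.810 (0.728 to 0.901) on chromosome 14 at 18208001 to 18211000. These 3 shared 38.5%, 69.3% and 71.1% of input positions and held 0 peaks.

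Single bins with few reads showed the lowest ratios of all. On chromosome 3 at 7516001 to 7517000 there were 62 input and 20 ChIP reads, a ratio of 0.305 (0.175 to 0.512). On chromosome 1 at 187159001 to 187160000 there were 90 and 31, a ratio of 0.326 (0.209 to 0.495). They shared 6.45% and 3.33% of input positions. In 13 blocks, each with at most 68 input reads, 0 positions were shared. Such bins were chosen because their input was high, so ratios at this end are lowered by the choice.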

How the data were processed

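The authors deposited 1 list of aligned reads per library and 1 peak list. Per the submitters' processing notes the build is mm8, and HOMER appears without a role. Not given in the sources used here are the aligner, the handling of reads with several matches or of repeated positions, and the control used in peak calling. Every deposited read was 35 bp long, and 0 reads repeated a position and strand. The authors' peak list gives a score per peak of 150 bp with no stated scale, which was used only to describe and rank peaks.

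Bins, blocks and peaks follow from the 5′ ends of reads. Ratios carry exact conditional binomial 95% intervals, and shares exact Clopper-Pearson 95% intervals. The ratio interval and the estimate of readable positions were tested on simulated data. The simulated counts had no limit of 1 read per position, and simulated positions were equally likely to be read. Ratio intervals of nearly full blocks and estimates with unequal positions were thus not checked. Blocks named are the 10 with the most input reads, those named in the rule that chose the members (on chromosomes 17 and 11), the 3 highest and 3 lowest ratios among blocks with at least 500 input reads, and those with at least 3 peaks. Peaks named are the 5 with the highest score and the 3 with the most ChIP reads. Others were chosen after their values were seen. The members and lists were chosen with earlier results of these data known. No genome or annotation of mm8 was at hand, so sequences and genes at the blocks were not analysed here. The software was Python 3.11.15 with scipy 1.17.1, numpy 2.4.6 and pandas 2.3.3, and plots used matplotlib 3.10.9.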

Additional observations from a re-analysis of the deposited data

How the results depend on the processing

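Of 47 alternative values, 20 stayed within their limit (1.5 times the main count, or the 95% interval of a ratio), 19 moved beyond it and 8 turned to the other side of input, all of these for the pooled ratio of 1.03. That ratio was 0.882 with at least 30 input reads per bin, 0.921 without bins that hold a peak, 0.975 without the block on chromosome 11 and 0.978 without the block on chromosome 17. As a median over blocks it was 0.797, or 0.758 corrected with the positions estimated from the overlap. As a median with bins chosen on 1 strand and measured on the other it was 0.885 and 0.874. It was 1.09 with at least 100 input reads, 1.08 scaled by windows without a high-input bin, 1.08 corrected for occupied positions, and 1.05 and 1.04 pooled over bins chosen on the plus and minus strand. With at least 30 input reads there were 3163 bins in 2556 blocks and 97 peaks, and with at least 100 there were 179 bins in 57 blocks and 31 peaks. Blocks above input numbered 7 with a ratio of at least 1.5, with or without correction for occupied positions, and 20 with bins chosen on the minus strand. Blocks below input numbered 53 and 52 with bins chosen on the plus and minus strand, where fewer reads enter each ratio. A score of at least 10 left 2 peaks. The ratio in member peaks was 1.65 in 1 kb around the centre and 2.25 without the block on chromosome 11. For all of these, the cause was not tested. The strand choice for medians and counts of blocks, the correction by overlap, the settings without the chromosome 17 block and, for peaks, those without the chromosome 11 block or without blocks of 1 or 2 bins were chosen after seeing the data. The limit of 1 read per position restricts the ratio of nearly full blocks, and depth restricts single bins. No paired analysis was possible because there was 1 library per group.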

Other observations

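Bins outside chromosomes 1 to 19 and X were not among the members, although reads on Y entered the library totals used for scaling. Unplaced contigs had 5 bins with at least 50 input reads, which together held 410 input and 299 ChIP reads, a scaled ratio of 0.690 (0.593 to 0.803). The mitochondrial genome had 13 such bins, with 7774 input and 3991 ChIP reads, a scaled ratio of 0.486 (0.468 to 0.505). Chromosome Y held 86 input and 81 ChIP reads in all and 0 such bins.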
